A study of Mus musculus with 18 samples.

Results

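The comparison asked where the response to chronic restraint stress differed between the liver and the brain of mice. In this model of long-term strain, animals are repeatedly confined in a small space. It used 12 of the 18 libraries of the series, 3 each from control liver, stress liver, control brain and stress brain. The sources used here give no strain, age, sex, duration of restraint or time of tissue collection, and the controls differ by the absence of the treatment alone as far as the labels tell. The members are not a chosen set of genes: all 13079 genes that passed a low-count filter both in liver (14253 passed) and in brain (17668 passed) were tested, of 34932 in the table. For each gene the measured quantity is the interaction, that is, stress minus control in liver minus stress minus control in brain, on the log2 scale. A positive interaction means that the stress effect, with its sign, was higher in liver than in brain. It does not compare the level of the gene between the tissues.

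Restraint activates the hypothalamus, pituitary and adrenal gland, and the adrenal cortex releases glucocorticoids into the blood. These hormones reach every tissue and bind the glucocorticoid receptor, a transcription factor that induces a few widely shared genes and many genes that are particular to 1 tissue. In the liver glucocorticoids act on glucose and lipid metabolism together with insulin and feeding, and the liver also holds a large population of resident macrophages, the Kupffer cells. The brain has its own resident macrophages, the microglia, and makes its own sterols behind the blood-brain barrier.

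Total counts were similar in the groups, from 29.95 to 36.5 megacounts per library. The sums of hepatocyte markers reached 77280 CPM (counts scaled to 1e+06 per library) or more in liver libraries, and those of neuron markers 10390 CPM or more in brain libraries. Brain is used as the name of the tissue, as in the sample labels, although the extraction text names the hippocampus. Stress brain replicate 3 carries a description with a control prefix, while its title, treatment and column say stress, and it was kept as stress. Some libraries stood apart in 2 kinds of genes. Fos, an immediate early gene, measured 854, 1150.1 and 695 CPM in control liver and 3.94, 1127 and 5.96 CPM in stress liver, where replicate 2 was the high one. Stress brain replicates 2 and 3 stood above the other brain libraries in the summed markers of the choroid plexus, a fluid-secreting epithelium. The 12 markers summed to between 224.8 and 264.8 CPM in control brain and to 241.2, 783.1 and 632.4 CPM in stress brain. Much of the sums in replicates 2 and 3 was Ttr, at 496.2 and 318.6 CPM on library size alone. Single markers did not all separate these libraries. Otx2 was highest in stress brain replicate 1 (2.84 CPM). Clic6 was 10.41 CPM in control brain replicate 3, against 11 and 13.89 CPM in stress brain replicates 2 and 3.

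The stress effect differed between the tissues for 73 genes, and in nearly all of them the effect was larger in liver. In edgeR's quasi-likelihood test 43 genes were higher (0.329% of the genes tested) and 30 were lower (0.229%) in liver minus brain at an adjusted p under 0.05, together 0.558%. The effect was larger in liver than in brain in 68 of the 73. All 43 higher genes had a positive stress effect in liver and all 30 lower genes a negative one. The brain effect was smaller than 0.25 in size on the log2 scale in 54. The shares of all genes for these counts are not given here. Over all genes tested, the median size of the effect was 0.21 in liver and 0.11 in brain. Calling genes by the difference of the 2 effects favours such signs in liver, so these counts follow in part from the calls. The higher genes had a median stress effect of 1.25 in liver and -0.04 in brain, and the lower genes of -1.35 and 0.09. Control and stress libraries did not overlap in liver for 72 of the 73 genes (22.4% of all genes tested) and in brain for 17 (14.4% of all genes tested, with 7.33% higher and 7.05% lower in stress). The liver share of 22.4% was made of 11.8% higher and 10.6% lower. The calls use the same libraries and favour such separation too.

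Within the liver alone, a 6-library fit called 52 of the 73 genes, and within the brain alone it called 0, where 17 reached an unadjusted p under 0.05. Over all genes, the liver-alone fit called 140 higher (0.982%) and 92 lower (0.645%) of 14253, and the brain-alone fit called 1 of 17668 (0.00566%). In brain, control and stress libraries of the same replicate number had correlated deviations from the group mean, of 0.181 to 0.356. No values for differently numbered libraries are given here. With the replicate number as a block the brain fit called 17 higher (0.0962%) and 5 lower (0.0283%), and 1 of the 73 interaction genes, Zbtb16, passed there (edgeR adjusted p = 0.0403). The libraries of liver spread more than those of brain, with a median SD between replicates of 0.24 against 0.15 in log2 CPM. Of the 189 genes called in liver alone and tested in both tissues, 188 had an interaction of the same sign as their liver effect and 177 reached an unadjusted interaction p under 0.05. These counts share the liver libraries with the interaction and so follow in part from it.

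**Figure D1:**
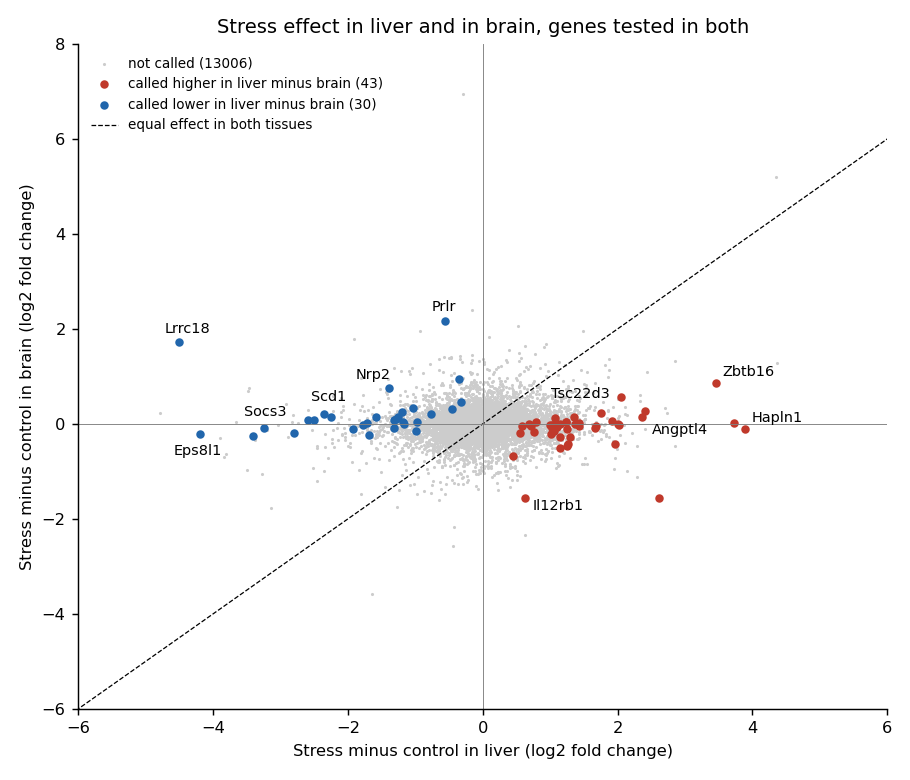
Each point is 1 of the 13079 genes tested, with the stress effect in liver on the x axis and in brain on the y axis (both log2 fold change, stress minus control). The called genes (43 red, 30 blue) spread along the liver axis near a brain effect of 0, and a gene with equal effects would lie on the dashed diagonal.

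The number of calls depended on single libraries. A liver and a brain library of the series share each of 6 sample codes, which the labels do not say are animals. With the code as a block 14 genes were higher and 13 lower (0.206% together), and 24 of the 73 genes were among them. All 73 kept an unadjusted p under 0.05 in that fit, and in all 73 the liver minus brain differences of the 3 stress codes lay outside those of the 3 control codes. Over all genes this separation held for 17.6%, with 9.49% above and 8.11% below. The 73 genes were called by the interaction in the same libraries, so both counts of 73 follow in large part from the calls. With the code block, 1557 of the 13079 genes reached an unadjusted p under 0.05. In the main fit, without a block, 946 genes reached it in the higher direction (7.23%) and 852 in the lower (6.51%). Together these were 1798 (13.7%), where 654 are expected by chance. Without stress brain replicates 2 and 3, an alternative added after seeing the data that leaves 1 stress brain library, 0 genes were higher and 1 was lower, Acsl3, with 1103 genes at an unadjusted p under 0.05. That fit assumes that the lone library varies like the other groups. The genes that were called in each of the 12 fits that leave out 1 library numbered 17, among them Acsl3, Fam198a, Trpm2, Cxcl14, Tchh, St3gal5, Camk1d, Scd1, Hapln1, Eps8l1, D130043K22Rik, Taok3, Pisd-ps1, Socs3, Srd5a1 and Epb41l3.

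**Figure D2:**
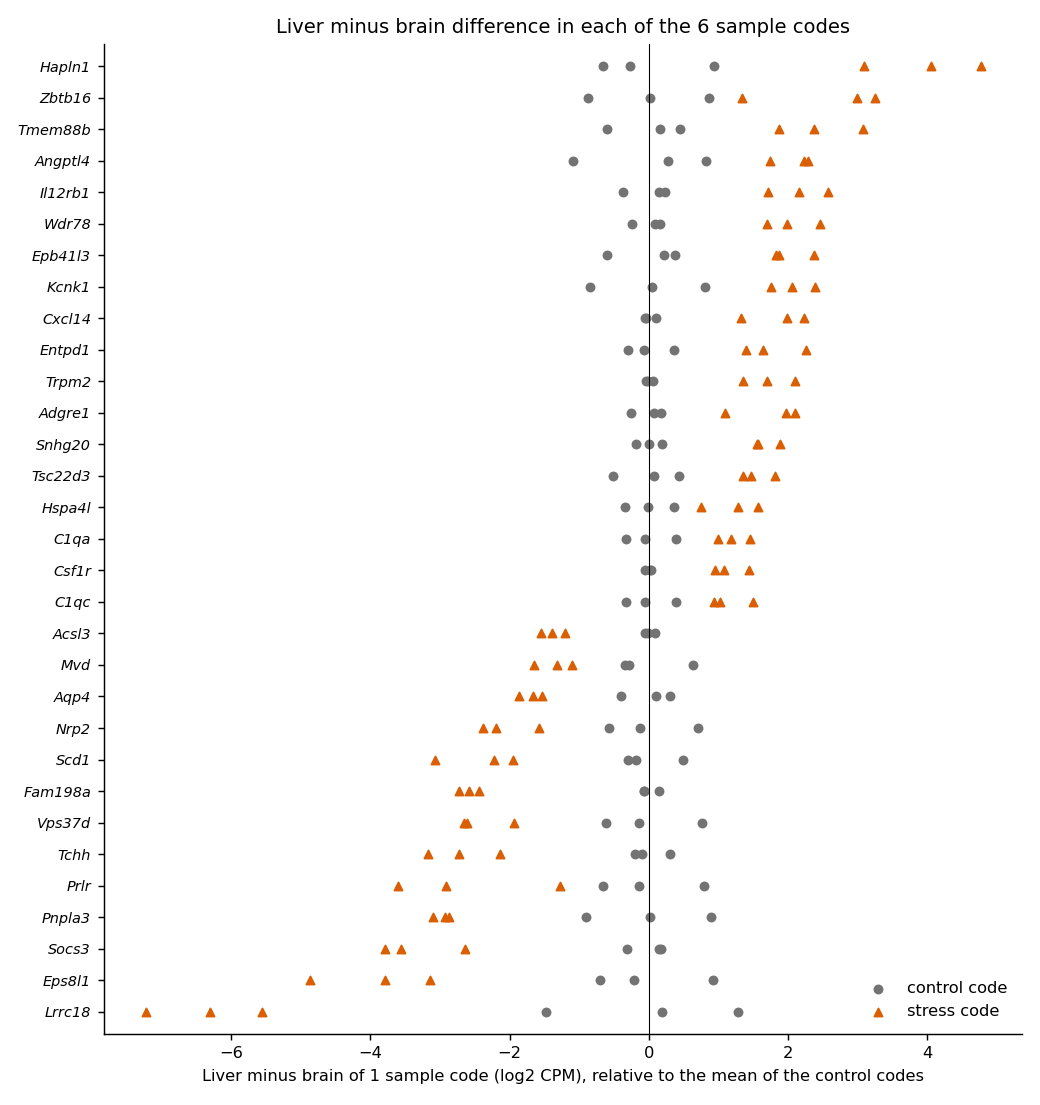
For 31 of the 32 named genes that were called, points give liver minus brain in log2 CPM for 1 sample code, relative to the mean of the control codes (grey circles, 3 control codes; orange triangles, 3 stress codes). The stress codes lie to 1 side of all control codes in every row, since the rule for naming genes and the calls both favour such rows.

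Glucocorticoid-induced genes gave 2 calls, Tsc22d3 and Zbtb16, both of which rose in liver, and most of the list did not pass. Of 25 genes in the list 22 were tested, 2 were called higher and 0 lower, and 5 in each direction had an unadjusted p under 0.05. The median interaction of the list was -0.10, beside -0.001 over all genes tested. DESeq2 called 2 higher and 2 lower in it, and limma-voom 1 and 0. Leaving out 1 library gave 0 to 2 higher calls, with 0 without stress liver replicate 3, control brain replicate 1 or 2, or stress brain replicate 2 or 3, and 1 without any control liver library. Without stress liver replicate 2 there were 2 higher and 1 lower.

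Tsc22d3 (ENSMUSG00000031431) encodes GILZ, a leucine zipper protein that carries part of the anti-inflammatory action of glucocorticoids. It measured 90.3, 52.2 and 68.1 CPM in control liver and 224, 208 and 279 CPM in stress liver. In brain it measured 40.7, 45.1 and 39.1 CPM in control and 53.2, 45.9 and 48.1 CPM in stress. Control and stress did not overlap in either tissue, and the shift was wider in liver. The log2 effects were 1.76 in liver and 0.24 in brain, an interaction of 1.52 ± 0.24 (SE; edgeR adjusted p = 0.0191, or 0.0561 with the code block). In liver alone the rise passed (edgeR adjusted p = 0.00722) and in brain alone the difference did not (edgeR adjusted p = 0.638).

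Zbtb16 (ENSMUSG00000066687), a zinc finger transcription factor also known as PLZF, measured 2.89, 4.91 and 4.85 CPM in control liver and 26.6, 67.6 and 44.9 CPM in stress liver. Its brain values were 32.3, 29.5 and 16.1 CPM in control and 64, 43 and 34.3 CPM in stress. All 3 stress libraries were above all 3 controls in both tissues. The log2 effects of 3.46 in liver and 0.86 in brain gave an interaction of 2.60 ± 0.51 (edgeR adjusted p = 0.0441), with 0.128 in the code block and a call in 4 of the 12 fits that leave out 1 library.

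Fkbp5 (ENSMUSG00000024222), a co-chaperone that restrains the glucocorticoid receptor, stood higher with stress in both tissues. It measured 17.8, 16.8 and 24.3 CPM in control and 47.8, 80.3 and 58.6 CPM in stress liver, and 18.3, 21.7 and 24.4 CPM in control and 31.3, 43.6 and 41.8 CPM in stress brain. The groups did not overlap in either tissue. The effect was 1.67 in liver (edgeR adjusted p = 0.0108) and 0.86 in brain (edgeR adjusted p = 0.385, or 0.012 with the replicate block). The interaction of 0.81 ± 0.29 had a 95% interval of 0.19 to 1.44 and did not pass (edgeR adjusted p = 0.219). Per1, a clock gene that glucocorticoids induce, Sgk1, a kinase gene, and Nr3c1, which encodes the receptor itself, had interactions of 0.28, -0.63 and 0.14. By edgeR their adjusted p were 0.829, 0.233 and 0.867, above the threshold. The 95% intervals of these 3 were -0.58 to 1.14, -1.14 to -0.13 and -0.40 to 0.68.

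**Figure D3:**
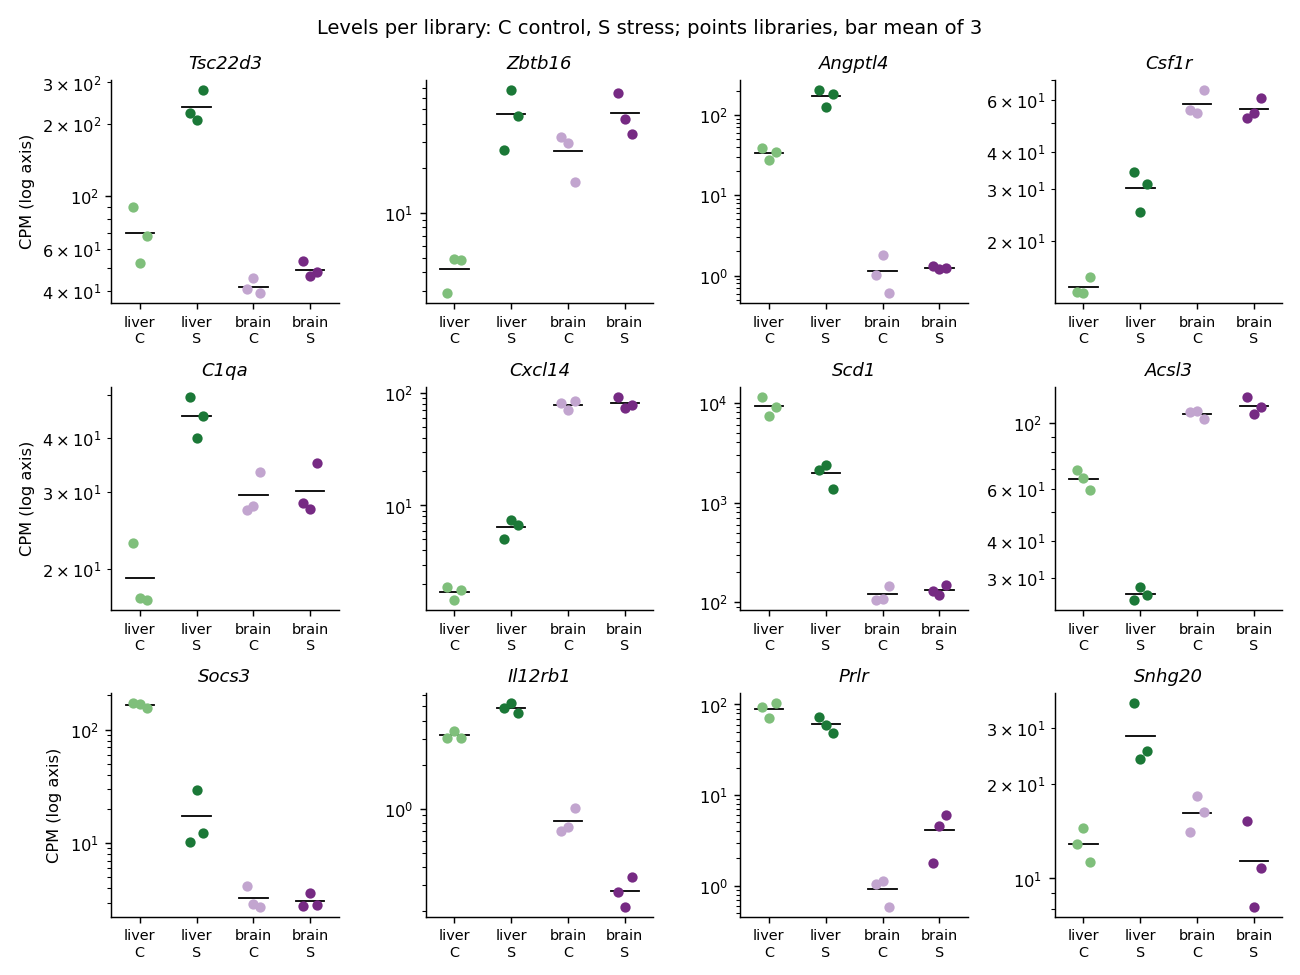
Levels of 12 called genes in CPM (log axis) in control (C) and stress (S) libraries of liver and brain, with 3 libraries per group as points and the mean as a bar. In the liver columns of Csf1r, C1qa, Cxcl14, Scd1, Acsl3 and Socs3 the groups are apart while the brain columns overlap; Il12rb1 and Prlr differ mainly in brain.

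Genes of immune cells and of complement formed the largest group of higher genes, 11 of the 43. Their median effect was 1.25 in liver and -0.06 in brain, and 9 of the 11 passed in liver alone. They were Il12rb1, Cxcl14, Entpd1, Trpm2, Adgre1, Hk3, C4a, Csf2ra, C1qa, Csf1r and C1qc. The sorting of called genes by function was made after the calls were known and carries no test. In the list of macrophage, Kupffer cell and microglia markers, 19 of 22 genes were tested. Of these, 4 were called higher (Adgre1, Csf1r, C1qa and C1qc), 0 lower, and 12 were higher at an unadjusted p under 0.05. The other genes of the 11 are not in that list. The median interaction of the list was 1.11, with 17 of 19 values positive. DESeq2 called 10 of them higher and limma-voom 3. Leaving out 1 library gave between 0 and 7 calls, with 7 without stress liver replicate 2, 6 without control liver replicate 1, and 0 without stress liver replicate 3 or stress brain replicate 2. The code block called 1.

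Csf1r (ENSMUSG00000024621) encodes the receptor for the growth factor on which macrophages and microglia depend. It measured 13.5, 13.4 and 15.1 CPM in control liver and 34.2, 25.2 and 31.2 CPM in stress liver, with no overlap. In brain, 55.3, 54.3 and 64.9 CPM in control stood beside 52.3, 54.1 and 61 CPM in stress, and the groups overlapped. The interaction was 1.17 ± 0.18 (edgeR adjusted p = 0.0152, or 0.0468 with the code block), and it was called in 10 of 12 fits without 1 library.

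C1qa and C1qc encode chains of C1q, the first component of the classical complement pathway, made largely by macrophages and microglia. C1qa (ENSMUSG00000036887) measured 22.9, 17.2 and 17 CPM in control and 49.6, 39.9 and 44.7 CPM in stress liver, and 27.4, 27.9 and 33.4 CPM in control and 28.4, 27.5 and 34.9 CPM in stress brain. C1qc (ENSMUSG00000036896) measured 17.1, 15.5 and 13.8 CPM and 38.8, 31.7 and 32.4 CPM in the same liver groups, and 21, 26 and 28 CPM and 22.1, 25.2 and 27.3 CPM in brain. Both separated the liver groups and overlapped in brain. Their interactions were 1.20 ± 0.21 and 1.16 ± 0.20 (edgeR adjusted p = 0.0296 and 0.0274), and neither passed with the code block (edgeR adjusted p = 0.0903 and 0.117). The third chain, C1qb, had an interaction of 1.20 that did not pass (edgeR adjusted p = 0.0544). Each of the 2 called chains was called in 3 of 12 fits without 1 library.

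Adgre1 (ENSMUSG00000004730), the gene of the macrophage surface antigen F4/80, measured 1.58, 1.87 and 1.9 CPM in control liver and 5.3, 3.42 and 4.01 CPM in stress liver. In brain it was 4.53, 3.94 and 4.29 CPM in control and 2.94, 3.82 and 2.43 CPM in stress. Stress was above control in liver and below control in brain, without overlap in either. The interaction of 1.72 ± 0.33 passed (edgeR adjusted p = 0.0419, or 0.128 with the code block), but it did so in 1 of 12 fits without 1 library and in neither tissue alone (edgeR adjusted p = 0.063 in liver and 0.664 in brain).

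Trpm2 (ENSMUSG00000009292), a cation channel of immune cells that opens under oxidative stress, measured 3.01, 3.57 and 3.21 CPM in control and 8.71, 10.4 and 12.1 CPM in stress liver, against 35.2, 39 and 36.7 CPM and 38.6, 36.4 and 31.9 CPM in brain. Its interaction was 1.73 ± 0.20 (edgeR adjusted p = 0.00396, or 0.0418 with the code block). Cxcl14 (ENSMUSG00000021508), a chemokine, measured 1.9, 1.46 and 1.77 CPM in control and 5.08, 7.49 and 6.76 CPM in stress liver, and 80.3, 69.4 and 83.4 CPM and 92, 72.7 and 77.3 CPM in brain. Its interaction was 1.86 ± 0.23 (edgeR adjusted p = 0.00465, or 0.0445 with the code block). Entpd1 (ENSMUSG00000048120), the ectonucleotidase CD39 that breaks down extracellular ATP, measured 1.82, 1.26 and 1.27 CPM in control and 5.56, 4.07 and 4.18 CPM in stress liver, and had an interaction of 1.76 ± 0.29 (edgeR adjusted p = 0.0206, or 0.0923 with the code block). The liver groups of these 3 genes did not overlap and their brain groups did.

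Markers that separate Kupffer cells from microglia are low in 1 of the 2 tissues. Clec4f, Vsig4 and Marco did not pass the filter in both tissues and were not tested. On library size alone, Clec4f, a lectin gene of Kupffer cells, was 30.43, 24.12 and 23.78 CPM in control liver and 54.97, 47.14 and 45.44 CPM in stress liver, with 0 in every brain library. Vsig4, a complement receptor of Kupffer cells, was 3.96, 3.28 and 3.92 CPM in control liver and 9.82, 8.10 and 9.92 CPM in stress liver. Tmem119, a microglial marker, was 18.22, 19.05 and 23.37 CPM in control brain and 18.02, 19.04 and 23.96 CPM in stress brain. P2ry12, a purine receptor of microglia, was 32.2, 28.0 and 28.3 CPM in control brain and 24.0, 26.2 and 23.8 CPM in stress brain. Both microglial markers were below 1 CPM in every liver library, and their interactions of 0.22 and 2.15 were not called (edgeR adjusted p = 0.899 and 0.0704). Summed levels of all 22 markers ranged from 119.4 to 141.2 CPM in control liver and from 229.2 to 284.1 CPM in stress liver. In brain it ranged from 414.4 to 490.0 CPM in control and from 395.1 to 459.1 CPM in stress. In these bulk samples, more cells of a type and more RNA per cell cannot be told apart.

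Class II antigen presentation, by which macrophages and other presenting cells show peptides to T cells, had a higher median interaction than the macrophage list, 1.26, but no call. Of 9 genes tested with edgeR, 0 were called, 8 were higher at an unadjusted p under 0.05, DESeq2 called 4 and limma-voom 0. Without stress liver replicate 2 edgeR called 3. Ctss, the protease that trims the class II invariant chain, had an interaction of 1.26 and H2-Eb1, a class II chain, of 1.41 (edgeR adjusted p = 0.0704 and 0.139). Red cell markers, which bear on blood left in the tissue, had 0 calls in 6 genes tested with edgeR, with 2 higher at an unadjusted p under 0.05, DESeq2 calling 1 and limma-voom 0, and edgeR 1 without control brain replicate 2. Their median effect was 0.24 in liver and -0.72 in brain, and their median interaction was 0.97, with 6 of 6 positive. Lymphocyte markers summed to between 17.88 and 49.97 CPM in control liver and between 28.29 and 52.84 CPM in stress liver. The median interaction was 1.30 over 5 lymphocyte markers tested and 1.11 over 2 neutrophil markers tested, beside 1.11 in the macrophage list. Median effects were 0.70 in liver and -0.57 in brain for lymphocyte markers, and -0.68 and -1.79 for neutrophil markers. The part of these blood cells in the macrophage result was not tested.

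Genes of lipid synthesis stood lower with stress in liver, and 3 of them, Scd1, Acsl3 and Pnpla3, had some of the largest falls or smallest p of the comparison. Among the called genes of lipid and steroid metabolism, 6 were lower (Lipa, Acsl3, Mvd, Vldlr, Scd1 and Pnpla3) and 4 were higher (Angptl4, St3gal5, Srd5a1 and Gde1). In the list of fatty acid and triglyceride synthesis, 23 of 23 genes were tested, 2 were called lower, 11 lower and 1 higher had an unadjusted p under 0.05, and the median effect was -0.60 in liver and 0.04 in brain. Leaving out 1 library gave 1 to 5 lower calls in it, with 5 without stress liver replicate 2 or control liver replicate 2, 4 without control liver replicate 1 or 3, and 1 without any 1 of the other 8 libraries. In the list of cholesterol synthesis and sterol control, 26 of 26 were tested, 1 was called lower and 15 were lower at an unadjusted p under 0.05. All 26 interactions of that list were negative, with a median of -0.71. Its median effect was -0.78 in liver and -0.03 in brain. DESeq2 called 10 of each list lower, and limma-voom 1 of the first and 0 of the second.

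Scd1 (ENSMUSG00000037071) encodes the desaturase that makes monounsaturated fatty acids. It measured 11487, 7387 and 9109.8 CPM in control liver and 2134, 2378 and 1359.6 CPM in stress liver, and 106, 109 and 145 CPM in control and 129, 119 and 148 CPM in stress brain. The liver groups were far apart and the brain groups overlapped. The log2 effects were -2.25 in liver and 0.14 in brain, and the interaction was -2.39 ± 0.31 (edgeR adjusted p = 0.00636, or 0.0457 with the code block).

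Acsl3 (ENSMUSG00000032883), an acyl-CoA synthetase that activates long-chain fatty acids at the endoplasmic reticulum and on lipid droplets, had the smallest adjusted p of all genes. It measured 69.6, 65.3 and 59.7 CPM in control liver and 25.3, 28.1 and 26.2 CPM in stress liver. In brain it measured 109, 109.9 and 103 CPM in control and 123, 107 and 114 CPM in stress. The replicates of each group lay close together, and the liver groups did not overlap. The interaction was -1.38 ± 0.13 (edgeR adjusted p = 0.00126, or 0.0275 with the code block).

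Pnpla3 (ENSMUSG00000041653), a lipid droplet hydrolase, measured 18, 5.93 and 7.13 CPM in control and 1.14, 0.988 and 0.801 CPM in stress liver, and 13.5, 15.6 and 9.91 CPM and 13.8, 10.3 and 8.7 CPM in brain. Control liver replicate 1 stood above the other controls. Its interaction was -3.16 ± 0.55 (edgeR adjusted p = 0.0274, or 0.0468 with the code block). Srebf1, which encodes the transcription factor that drives fatty acid synthesis, measured 1266, 866 and 741 CPM and 347, 456 and 364 CPM in the liver groups, and 42.5, 41.8 and 48.1 CPM and 41.7, 38 and 42 CPM in brain. Its interaction of -1.18 ± 0.25 did not pass (edgeR adjusted p = 0.0564), while its fall in liver alone did (edgeR adjusted p = 0.0235).

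Angptl4 (ENSMUSG00000002289), a secreted inhibitor of lipoprotein lipase that fasting and glucocorticoids are known to induce, moved the other way. It measured 38.6, 27.2 and 34.4 CPM in control liver and 204, 127 and 183 CPM in stress liver. In brain it stayed low, at 1.01, 1.83 and 0.61 CPM in control and 1.32, 1.2 and 1.24 CPM in stress. The interaction was 2.22 ± 0.42 (edgeR adjusted p = 0.039, or 0.105 with the code block). It was the only call among 24 tested genes of fatty acid oxidation, ketone synthesis and PPAR-alpha targets, whose median interaction was -0.12. The call held in 3 of the 12 fits that leave out 1 library, those without control liver replicate 1, stress liver replicate 2 or control brain replicate 3.

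In cholesterol synthesis the called gene was Mvd (ENSMUSG00000006517), mevalonate diphosphate decarboxylase. It measured 95.1, 57.7 and 52.7 CPM in control liver and 27.8, 29.6 and 25 CPM in stress liver, and 13.5, 16.2 and 14.2 CPM in control and 13.2, 16.3 and 17.2 CPM in stress brain. Its interaction was -1.41 ± 0.28 (edgeR adjusted p = 0.0447, or 0.117 with the code block). Hmgcs1 (ENSMUSG00000093930), the synthase that begins the mevalonate pathway, measured 365, 579 and 439 CPM in control and 148, 209 and 119 CPM in stress liver, and 214, 245 and 209.9 CPM and 162, 230.2 and 201 CPM in brain. Its interaction of -1.36 ± 0.30 did not pass (edgeR adjusted p = 0.0626), and neither did those of Msmo1 (-1.35) and Cyp51 (-0.93), which demethylate sterol intermediates (edgeR adjusted p = 0.0544 and 0.0562). In liver alone Hmgcs1 and Msmo1 passed (edgeR adjusted p = 0.0192 and 0.026). Calls in this list ranged from 0 to 9 when 1 library was left out, with 9 without stress liver replicate 2 and 7 without control liver replicate 1. The median moved to -0.49 without stress brain replicates 2 and 3 together, with 23 of 26 values negative.

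Sterol genes are known targets of the factor SREBP, which binds sterol elements next to CCAAT boxes bound by NF-Y. The promoters of the called gene Mvd and of Hmgcs1 are shown because all 26 members of the list had negative interactions. They are the 250 bases before the RefSeq start of each gene on build GRCm38.p6, chr8:122443423-122443672 on the minus strand for Mvd and chr13:119690101-119690350 on the plus strand for Hmgcs1. Capitals mark CCAAT or its reverse complement in Mvd, and a match to the sterol element in Hmgcs1.
Mvd: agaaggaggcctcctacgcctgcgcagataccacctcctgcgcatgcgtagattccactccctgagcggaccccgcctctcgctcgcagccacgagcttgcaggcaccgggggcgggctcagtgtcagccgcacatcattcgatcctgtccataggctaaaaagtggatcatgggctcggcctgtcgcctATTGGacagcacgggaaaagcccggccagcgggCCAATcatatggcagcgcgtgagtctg
Hmgcs1: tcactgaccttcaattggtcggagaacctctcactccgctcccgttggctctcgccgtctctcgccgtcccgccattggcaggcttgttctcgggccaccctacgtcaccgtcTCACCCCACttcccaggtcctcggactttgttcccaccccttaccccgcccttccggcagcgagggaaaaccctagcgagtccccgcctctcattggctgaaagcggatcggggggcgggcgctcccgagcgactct
RefSeq promoters matched 18 of the 26 genes of the list. The sterol element TCACNCCAC, searched on both strands, was in 1 of the 18, Hmgcs1, and in 1.23% of the 27025 genes with a promoter of that length in the table. CCAAT, on either strand, was in 17 of the 18 and in 37.5% of all genes. The 2 motifs do not overlap in letters as printed, and a match describes these letters only.

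**Figure D4:**
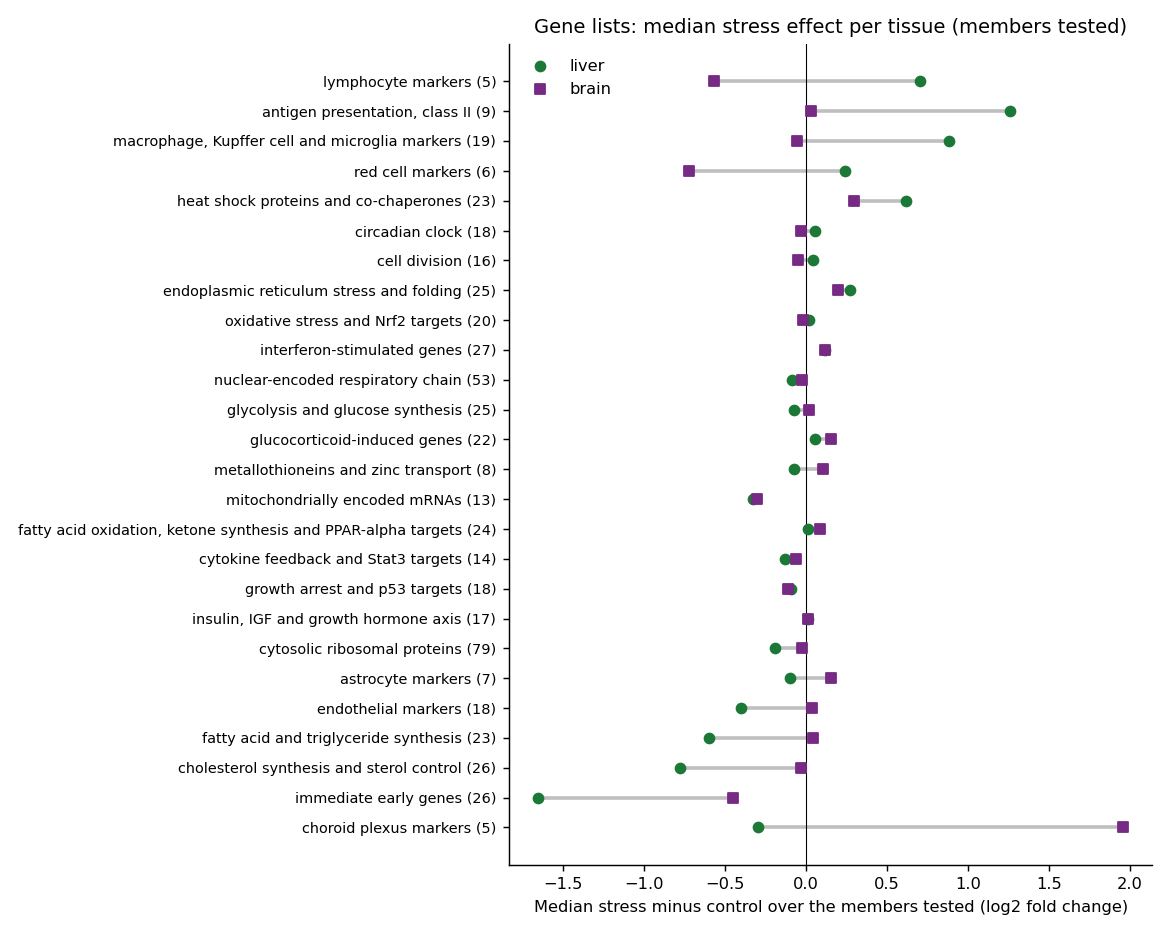
Median stress minus control over the tested members of each gene list with at least 5 tested members, in liver (green circles) and brain (purple squares), as log2 fold change, sorted by the median interaction. The numbers of tested members are in parentheses; the macrophage and class II lists lie to the right in liver and the sterol and immediate early lists to the left, with brain medians nearer to 0.

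Immediate early genes, transcription factor genes and the like that respond within minutes to hormones, cytokines and activity, stood lower with stress in liver, and the cytokine feedback gene Socs3 fell there. Of 30 immediate early genes 26 were tested. With edgeR 0 were called, 11 were lower at an unadjusted p under 0.05, DESeq2 called 4 lower and limma-voom 2. The median interaction was -1.20, and 25 of 26 were negative. The median effect was -1.66 in liver, where 0 of 26 were above 0, and -0.45 in brain. Stress liver replicate 2 stood apart in many of these genes. Without it edgeR called 14 lower, with a median of -2.97. This fit is set out because the library stood apart in the values seen. Leaving out control liver replicate 1 gave 1 lower call, and leaving out any other single library gave 0. The highest median among the fits without 1 library was -1.03.

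Fosb, a subunit of the AP-1 transcription factor, measured 34.9, 31.5 and 40.5 CPM in control and 1.75, 6.21 and 1.42 CPM in stress liver, and 50.3, 57 and 41.9 CPM in control and 34.7, 20.5 and 20.7 CPM in stress brain. Stress lay below control in both tissues without overlap. The effects were -3.49 and -0.97, and the interaction of -2.52 ± 0.55 did not pass (edgeR adjusted p = 0.0601). Without stress liver replicate 2 it was -3.54 and passed (edgeR adjusted p = 0.000628). Nr4a1, an orphan nuclear receptor gene, measured 365, 425 and 336 CPM in control and 5.95, 65.8 and 6.54 CPM in stress liver, where replicate 2 was again the highest of the stress libraries. Its interaction was -3.14 (edgeR adjusted p = 0.163), or -5.24 without that library, which passed (edgeR adjusted p = 0.000508). Myc, a growth regulator, had an interaction of -2.76 (edgeR adjusted p = 0.0774), or -3.97 without stress liver replicate 2, which passed (edgeR adjusted p = 7.52e-05).

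Socs3 (ENSMUSG00000053113), the feedback inhibitor that cytokines such as interleukin-6 induce through STAT3, was the only call among 14 tested cytokine feedback genes and STAT3 targets, whose median interaction was -0.15; without control liver replicate 1 there were 2. It measured 169.8, 167 and 155 CPM in control liver and 10.2, 29.5 and 12.2 CPM in stress liver. In brain the values were 4.17, 2.92 and 2.76 CPM in control and 2.81, 3.63 and 2.86 CPM in stress, and they overlapped. The interaction was -3.16 ± 0.46 (edgeR adjusted p = 0.0106, or 0.0172 with the code block). Without stress liver replicate 2 it was -3.82. Its relative Socs1 had an interaction of -2.61 with an adjusted p of 0.12 by edgeR. Leaving that library out gave -2.70, with an adjusted p of 0.144 by edgeR, so that neither value passed.

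Heat shock proteins and co-chaperones stood higher with stress in both tissues in most members. All 23 genes of the list were tested. The effect was above 0 for 21 in liver and 23 in brain, with medians of 0.62 and 0.29. In the interaction 1 gene was called higher, 5 were higher at an unadjusted p under 0.05, and the median was 0.30. DESeq2 and limma-voom each called 1. The called gene was Hspa4l (ENSMUSG00000025757), a relative of the Hsp70 chaperones. It measured 19.9, 24.6 and 28.5 CPM in control and 44.6, 57 and 70.1 CPM in stress liver, and 163, 161 and 143 CPM in control and 172, 152 and 153 CPM in stress brain. Its interaction was 1.20 ± 0.23 (edgeR adjusted p = 0.039, or 0.119 with the code block), and the call held in 4 of the 12 fits that leave out 1 library. Hspb1, a small heat shock protein, had effects of 2.44 in liver and 1.09 in brain and an interaction of 1.35 ± 0.59 that did not pass (edgeR adjusted p = 0.332).

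Genes of the cytoskeleton, cell adhesion and matrix gave 4 higher and 8 lower calls, and genes of signalling, receptors and channels gave 4 higher and 8 lower calls. Several of them stand far higher in brain than in liver, and their liver values rest on few counts. Hapln1 (ENSMUSG00000021613), a link protein of the hyaluronan matrix, measured 0.0791, 0.244 and 0.0844 CPM in control and 2.36, 1.07 and 2.76 CPM in stress liver, a sum of 10 counts against 142. In brain it measured 16.9, 15.5 and 13.8 CPM in control and 16.4, 14.6 and 11.7 CPM in stress. Its interaction was 4.0 ± 0.54 (edgeR adjusted p = 0.00885, or 0.0468 with the code block). Epb41l3 (ENSMUSG00000024044), a protein of the membrane skeleton, summed to 26 counts in control and 100 in stress liver and had an interaction of 2.05 ± 0.31 (edgeR adjusted p = 0.0152). Kcnk1, a potassium channel, and Wdr78, a part of the dynein motor of cilia, summed to 24 and 18 counts in control liver and 92 and 91 in stress liver. Their interactions were 2.01 and 2.14 (edgeR adjusted p = 0.0356 and 0.0274). The membrane protein gene Tmem88b had 2.06, 1.46 and 1.43 CPM in control and 5.69, 5.6 and 8.01 CPM in stress liver and an interaction of 2.37 ± 0.46 (edgeR adjusted p = 0.0419). Its brain values were 38.7, 33.7 and 55.7 CPM in control and 39.7, 16.9 and 39.5 CPM in stress, with stress brain replicate 2 the lowest.

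Among the lower genes, Eps8l1 (ENSMUSG00000006154), a regulator of actin, measured 2.61, 2.35 and 3.88 CPM in control and 0.0875, 0.206 and 0.178 CPM in stress liver, a sum of 216 counts against 11. In brain it measured 8.09, 10.2 and 5.47 CPM in control and 7.88, 8.06 and 4.49 CPM in stress. Its interaction was -3.98 ± 0.55 (edgeR adjusted p = 0.00885, or 0.0468 with the code block). Tchh (ENSMUSG00000052415), which encodes trichohyalin, a structural protein of hair follicles, measured 15.5, 19.9 and 21 CPM in control and 1.71, 3.66 and 2.67 CPM in stress liver, and 7.25, 8.69 and 6.89 CPM and 6.31, 6.57 and 7.21 CPM in brain. Its interaction was -2.62 ± 0.32 (edgeR adjusted p = 0.00465, or 0.0275 with the code block). Fam198a (ENSMUSG00000038233), a gene given here without a role, measured 18.5, 13.4 and 15.5 CPM in control and 3.24, 3.29 and 2.76 CPM in stress liver, and 5.23, 3.23 and 4.39 CPM and 5.23, 4.79 and 4.92 CPM in brain. Its interaction was -2.57 ± 0.28 (edgeR adjusted p = 0.00377, or 0.0172 with the code block). In all 3 the liver groups did not overlap and the brain groups did.

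Aqp4 (ENSMUSG00000024411), the water channel of astrocytes, measured 4.98, 5.68 and 3.21 CPM in control and 1.4, 1.81 and 1.42 CPM in stress liver, and 60.5, 60.0 and 54.9 CPM and 66.7, 74.7 and 53.8 CPM in brain. Its interaction was -1.73 ± 0.28 (edgeR adjusted p = 0.0191). Vps37d, a subunit of the sorting complex ESCRT, summed to 79 counts in control and 13 in stress liver and had an interaction of -2.57 (edgeR adjusted p = 0.0483). The liver levels of both genes were far under their brain levels.

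The other called genes covered cell structure, signalling, gene regulation and turnover. Of the cytoskeletal and adhesion genes, Ablim3 (1.21) and Cdc42bpb (0.62) were higher, and Gas7 (-1.17), Pkp2 (-1.30), Lgals1 (-1.45), Sept6 (-1.45), Clstn3 (-1.74) and Dpysl4 (-2.67) were lower, each value being the interaction. The value of Dpysl4 rests on low liver levels, 0.593, 0.771 and 0.506 CPM in control and 0.131, 0 and 0.178 CPM in stress. It was called in 3 of the 12 fits that leave out 1 library. Pkp2, a desmosome protein gene, differed more in brain, by 0.94, than in liver, by -0.36. Clstn3, a synaptic adhesion protein gene, measured 40.0, 23 and 23.9 CPM in control and 10.9, 8.72 and 6.81 CPM in stress liver, against 346, 357 and 341 CPM and 363, 339 and 359.6 CPM in brain. Of the signalling genes, Slc25a27 (1.47), Rassf2 (1.40) and Npr2 (0.77) were higher, and Tnfrsf19 (-0.85), Taok3 (-0.97) and Camk1d (-1.02) were lower. Taok3, a kinase gene, measured 54.1, 55.2 and 57.8 CPM in control and 30.7, 35.7 and 31.8 CPM in stress liver, and 48.4, 45.4 and 42.7 CPM and 53.7, 54.7 and 48.3 CPM in brain.

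Genes of chromatin, transcription, RNA and protein turnover gave 6 higher calls, Hist1h4k (3.70), Snhg20, Usp2 (1.43), Samd1 (1.02), Brms1l (0.75) and Pnn (0.68), and 3 lower ones, Tle3 (-0.78), Srrm4 (-1.40) and Vps37d. The value of Hist1h4k rests on very low liver levels, 0.0396, 0.0812 and 0.0844 CPM in control and 0.832, 0.494 and 1.51 CPM in stress. It was called in 1 of the 12 fits that leave out 1 library. Usp2, a deubiquitinase gene that follows the circadian clock, measured 46.4, 47 and 29.1 CPM in control and 74.1, 116 and 81.4 CPM in stress liver, and 67.8, 71.5 and 61.9 CPM and 55.8, 56.6 and 53.2 CPM in brain. The liver groups were apart with stress higher, and the brain groups were apart with stress lower. Of cilia and centrosome genes, Wdr78, Tedc2 (1.06) and Sfi1 (0.94) were higher. Gstp1 (0.94), a glutathione transferase of detoxification, measured 1439, 1633 and 1984 CPM in control and 2928, 2466 and 3164 CPM in stress liver, and has the close copy Gstp2, so its reads are uncertain. No role was assigned to 12 called genes. The 7 higher ones were Gm17259, Tmem88b, Gm38393, Pisd-ps1, Gm5113, A230050P20Rik and Ankrd13b, and the 5 lower ones D130043K22Rik, Lgalsl, Klhdc7a, Fam198a and Lrrc18. In lipid metabolism St3gal5 (1.23), which makes a ganglioside, and Gde1 (0.74), a phosphodiesterase, were higher, and Vldlr (-1.76), a lipoprotein receptor, was lower. All of these are called genes of the interaction, listed by function and not by the rule for named genes.

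Opposite signs in the 2 tissues were found in 47 of the 73 genes, and in 6 of those both effects reached 0.5 in size. The share of opposite signs over all genes is not given here, and calling genes by the difference of the 2 effects favours opposite signs. The brain effect was under 0.25 in size in 54 of the 73, so many of its signs rest on small values. The 6 genes with both effects of at least 0.5 were Gm17259, Il12rb1, Prlr, Snhg20, Nrp2 and Lrrc18. The effect was larger in brain than in liver in 5 called genes: Il12rb1, Srd5a1, Lipa, Pkp2 and Prlr. None of these 5 passed in brain alone, where Lipa and Prlr had the lowest value (edgeR adjusted p = 0.387).

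Il12rb1 (ENSMUSG00000000791), a receptor subunit for interleukin-12 and interleukin-23, measured 3.05, 3.41 and 3.04 CPM in control and 4.86, 5.23 and 4.49 CPM in stress liver. In brain it was 0.703, 0.747 and 1.02 CPM in control and 0.269, 0.215 and 0.343 CPM in stress. Stress was above control in liver and below it in brain, without overlap. The effects of 0.62 and -1.57 gave an interaction of 2.19 ± 0.36 (edgeR adjusted p = 0.0206, or 0.11 with the code block), and neither tissue passed alone (edgeR adjusted p = 0.206 in liver and 0.413 in brain).

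Srd5a1 (ENSMUSG00000021594), a reductase that inactivates glucocorticoids and converts testosterone and progesterone, measured 101, 111 and 84.9 CPM in control and 142, 134 and 130.3 CPM in stress liver, and 6.35, 6.95 and 5.69 CPM in control and 4.24, 4 and 3.64 CPM in stress brain. Its interaction was 1.13 ± 0.17 (edgeR adjusted p = 0.012, or 0.0368 with the code block). Lipa (ENSMUSG00000024781), the acid lipase of lysosomes, measured 174, 184 and 175 CPM in control and 144, 142 and 140.3 CPM in stress liver, and 14.1, 12.1 and 12.9 CPM in control and 18.3, 18.7 and 16.4 CPM in stress brain. Its interaction was -0.77 ± 0.12 (edgeR adjusted p = 0.0191, or 0.0923 with the code block). Both genes separated control from stress in each tissue, in opposite directions. Srd5a1, Lipa and Pkp2 fell outside the rule for named genes and were chosen after their values were seen.

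Prlr (ENSMUSG00000005268), the prolactin receptor, is abundant in liver and in choroid plexus. It measured 92.9, 71.1 and 103 CPM in control and 72.7, 59 and 48.6 CPM in stress liver, with overlap. In brain it was 1.03, 1.13 and 0.589 CPM in control and 1.8, 4.56 and 6.04 CPM in stress. The 2 highest values came from the libraries with the highest sums of choroid plexus markers. Its interaction was -2.74 ± 0.50 (edgeR adjusted p = 0.0356, or 0.125 with the code block), and without those libraries it was -1.54 and did not pass (edgeR adjusted p = 0.289). Ttr, the transthyretin gene that choroid plexus and liver express, measured 0.483, 4.25 and 0.203 CPM in control brain and 2.65, 363 and 235 CPM in stress brain. Its interaction of -7.24 did not pass (edgeR adjusted p = 0.0713). Of 12 choroid plexus markers 5 were tested, 1 was called lower and 3 were lower at an unadjusted p under 0.05, with a median interaction of -2.74, or -0.32 without both libraries. Without stress brain replicate 1 there were 3 lower calls.

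Nrp2 (ENSMUSG00000025969), a neuropilin that binds semaphorins and vascular growth factors, measured 23.8, 16.7 and 14.7 CPM in control and 6.48, 8.72 and 5.87 CPM in stress liver, and 23.3, 29.3 and 35.1 CPM in control and 31, 72.9 and 43.3 CPM in stress brain. The brain groups overlapped, and stress brain replicate 2 was the highest. Its interaction was -2.13 ± 0.41 (edgeR adjusted p = 0.0419, or 0.0662 with the code block), and -1.47 without stress brain replicates 2 and 3 (edgeR adjusted p = 0.266). Snhg20 (ENSMUSG00000086859), a noncoding RNA, measured 12.8, 14.5 and 11.3 CPM in control and 35.9, 23.9 and 25.3 CPM in stress liver, and 14.1, 18.2 and 16.2 CPM in control and 15.3, 8.14 and 10.8 CPM in stress brain. Its interaction was 1.64 ± 0.31 (edgeR adjusted p = 0.0415, or 0.0275 with the code block). The strand setting of the counts is not given in the sources used here, so reads of an overlapping antisense gene cannot be told apart. Lrrc18, a leucine-rich repeat gene, summed to 54 counts in control liver and 2 in stress liver, a ratio of 0.0392 (exact 95% interval 0.00463 to 0.148, counting error only), and to 18 counts in control and 60 in stress brain. Its fitted interaction of -6.24 (edgeR adjusted p = 0.0433) depends on the prior count of the model.

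C4a, a complement component gene, measured 164, 189 and 137 CPM in control and 633, 727 and 679 CPM in stress liver, and 2.09, 2.04 and 3.64 CPM in control and 3.77, 3.65 and 4.03 CPM in stress brain. Its interaction was 1.50 ± 0.27 (edgeR adjusted p = 0.0355, or 0.124 with the code block). It has a near-identical copy, C4b, so the division of reads between them is uncertain. A gene outside the rule, chosen after its values were seen, showed a large stress effect shared by both tissues. It was the pseudogene Gm6969, which measured 0.752, 1.38 and 0.759 CPM in control and 27.8, 20.9 and 10.5 CPM in stress liver, and 0.703, 0.317 and 0.325 CPM in control and 18.9, 19.9 and 11 CPM in stress brain. It passed in each tissue alone (edgeR adjusted p = 0.00286 in liver and 0.0252 in brain), and its interaction of -0.85 ± 0.61 did not pass (edgeR adjusted p = 0.601). As a pseudogene it may share reads with its parent gene.

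Other pathway lists showed no or few calls. Circadian clock genes, of which 18 were tested, had 0 calls with edgeR, DESeq2 and limma-voom, 3 higher at an unadjusted p under 0.05 and a median interaction of 0.04. Per2, a clock repressor, had effects of 1.22 in liver and 0.57 in brain (interaction 0.65, edgeR adjusted p = 0.132). Endoplasmic reticulum stress genes had 0 calls among 25 with edgeR, with an unadjusted p under 0.05 for 1 higher and 3 lower genes, DESeq2 calling 2 and limma-voom 1, all lower. With stress liver replicate 2 left out, edgeR called 3 lower. Their median effects were 0.27 in liver and 0.19 in brain. Within that list Atf4, the transcription factor of the integrated stress response, measured 406, 393 and 399 CPM in control and 151, 259 and 157 CPM in stress liver and fell in liver alone (edgeR adjusted p = 0.041), while its interaction of -1.09 did not pass (edgeR adjusted p = 0.0626). Its highest stress library was replicate 2, without which the interaction was -1.42 and passed (edgeR adjusted p = 0.000532).

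Metallothioneins and zinc transport gave 0 calls among 8 with edgeR, 3 lower at an unadjusted p under 0.05, 1 lower with DESeq2 and 0 with limma-voom. In the fit without stress liver replicate 2 edgeR called 1 lower. Mt2, a metal-binding protein that glucocorticoids are known to induce, measured 18.2, 22.4 and 82.3 CPM in control and 1.31, 8.93 and 7.16 CPM in stress liver, and 42.7, 57.2 and 50.9 CPM in control and 56.8, 58.5 and 56 CPM in stress brain. Stress was below control in liver and the brain groups overlapped. Its interaction of -3.00 ± 0.79 did not pass (edgeR adjusted p = 0.0995). Cytosolic ribosomal proteins had 68 of 79 interactions below 0, with a median of -0.19, 0 calls with edgeR and limma-voom, 9 lower at an unadjusted p under 0.05, 1 lower with DESeq2 and 1 lower with edgeR without stress liver replicate 2. Endothelial markers had a median of -0.39 in 18 genes, with 0 calls in the 3 tools and 3 lower at an unadjusted p under 0.05. Genes of the respiratory chain, 53 encoded in the nucleus and 13 in the mitochondrion, had medians of -0.07 and -0.10 and 0 calls in the 3 tools, with 2 and 1 lower at an unadjusted p under 0.05.

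The remaining metabolic and growth lists had no call in the fit of all 12 libraries. Glycolysis and glucose synthesis (25 tested, median -0.09), the insulin and growth hormone axis (17, -0.17), oxidative stress and Nrf2 targets (20, -0.01), growth arrest and p53 targets (18, -0.17), cell division (16, 0.04) and interferon-stimulated genes (27, -0.04) each had 0 calls with edgeR and limma-voom. DESeq2 called 1 gene in each of the first 4 and 0 in the last 2. Genes with an unadjusted p under 0.05 numbered, in that order, 1, 0, 1, 1, 1 and 3 in the higher direction and 3, 1, 1, 3, 0 and 0 in the lower. Leaving out stress liver replicate 2, edgeR called 3 lower among growth arrest and p53 targets and 2 lower in glycolysis and glucose synthesis. The p53 targets gave 1 lower call without stress liver replicate 1, and the insulin and growth hormone axis gave 1 without that library and 1 each without control liver replicates 1 and 3. The markers of hepatocytes, neurons, neutrophils, lymphocytes and oligodendrocytes had 2, 3, 2, 5 and 4 genes that passed the filter in both tissues, and edgeR called 0 of them, with 1 higher (a neuron marker) and 2 lower (a hepatocyte and an oligodendrocyte marker) at an unadjusted p under 0.05. Of these lists DESeq2 called 1 hepatocyte marker lower and limma-voom 0. The lower hepatocyte marker in each case was Ttr, the gene given above with the choroid plexus markers. Astrocyte markers had 1 call, Aqp4, among 7, with 2 lower without stress liver replicate 2 and 0 without stress liver replicate 1 or 3, control brain replicate 1 or stress brain replicate 2. Hepatocyte markers had 1 lower call, again Ttr, without stress brain replicate 1.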

How the data were processed

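RNA was sequenced from total RNA with a stranded kit, per the labels' protocols, and mm39 is the build per the submitters' processing notes. The sources used here do not name the aligner, the counter, the annotation or the strand setting. The table deposited by the authors gives whole-number counts per gene, TPM (summing to 1e+06 per library) and FPKM; counts were used for all tests, TPM for 1 alternative, and FPKM was not used. The design text calls the 3 replicates of each group biological. Symbols came from GENCODE M21 (GRCm38) by gene identifier (34362 named, 570 not), so no positions are given except those of RefSeq promoters. Counts per library ranged from 29.95 to 36.5 megacounts.

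Genes had to pass edgeR's default low-count filter in liver and in brain. The interaction was fitted in R 4.3.3 by the 2-sided quasi-likelihood test of edgeR 4.0.16, with TMM factors over 12 libraries, on 4 group means, with Benjamini-Hochberg adjustment over 13079 genes and a threshold of 0.05. Effects within a tissue come from the same fit, and adjusted p within a tissue from its 6 libraries. SE is that of the fitted log2 value, with 1 estimate of the spread per gene shared by both tissues. CPM are TMM-scaled, except for marker sums and the levels given for Kupffer cell and microglia markers, which use library size. Alternatives used DESeq2 1.42.0 and limma 3.58.1. On simulated data (13034 genes, 200 changed) the interaction test recovered 50% of 2-fold and 75.8% of 4-fold differences with 4 false calls of 126, and with 0 changed genes (13069 genes) it made 0 calls. The simulated counts were independent, with the same spread setting per gene in both tissues and no outlying or paired libraries. These rates therefore hold for such data and do not give the error rate in the real libraries.

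Deviations from the group mean were compared between libraries. Libraries of the same code in liver and brain had correlations across genes of 0.01 to 0.102, and the labels do not state that a code is 1 animal, so the code stayed an alternative. Same-numbered control and stress libraries had 0.231, 0.181 and 0.356 in brain and 0.16, 0.037 and 0.014 in liver. The replicate block in brain was taken from these data alone, which can make p too small. Correlations of differently numbered libraries are not given here, so a pairing is not established in either tissue.

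The comparison, the 30 gene lists and the tests were chosen with earlier results of these data known. Named genes were the 10 largest called interactions in each direction with a mean of at least 1 CPM in a group of each tissue and code differences that did not overlap, the 5 smallest adjusted p, up to 4 members of each list by p, up to 8 called genes with opposite effects of at least 0.5, and Fkbp5, Tsc22d3, Zbtb16, Per1, Sgk1 and Nr3c1. This rule skipped predicted genes, pseudogenes and genes of small RNAs. One called gene is not reported here. Other genes appear as called genes sorted by function or as chosen after their values were seen.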

Additional observations from a re-analysis of the deposited data

Results flagged for a closer look

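The stress effect differed between liver and brain in the interaction test of edgeR for 32 named genes, of which 31 are given with their log2 interaction. Among immune genes these were Il12rb1 (2.19), Cxcl14 (1.86), Entpd1 (1.76), Trpm2 (1.73), Adgre1 (1.72), C1qa (1.20), Csf1r (1.17) and C1qc (1.16). Glucocorticoid-induced genes were Zbtb16 (2.60) and Tsc22d3 (1.52). Lipid genes were Angptl4 (2.22), Acsl3 (-1.38), Mvd (-1.41), Scd1 (-2.39) and Pnpla3 (-3.16). Signalling and channel genes were Kcnk1 (2.01), Aqp4 (-1.73), Nrp2 (-2.13), Prlr (-2.74) and Socs3 (-3.16). The others were Hapln1 (4.0), Epb41l3 (2.05), Tchh (-2.62), Eps8l1 (-3.98), Hspa4l (1.20), Wdr78 (2.14), Snhg20 (1.64), Vps37d (-2.57), Tmem88b (2.37), Fam198a (-2.57) and Lrrc18 (-6.24).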

How the results depend on the processing

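The direction of all 32 called named genes held under every alternative run. Among the 102 that were not called, 7 changed sign in 25 of the 4133 values computed for named genes, without passing in any; Per1 and Nr3c1 were among them, with values down to -0.13 and -0.10. The number of calls moved. Against 43 higher and 30 lower genes, a filter over the 12 libraries gave 19 and 18, no low-count filter 15 and 27, limma-voom 26 and 21, limma-voom with the spread per tissue 20 and 15, and limma on log2(TPM + 1) 19 and 12. DESeq2 gave 243 and 302, with all 73 genes among them. The replicate block by the shared sample code gave 14 and 13. The replicate block by the number of the titles gave 52 and 44, with 65 of the 73 genes shared. A pairing by these numbers is not established in either tissue. Leaving out 1 library or 1 code gave 3 to 85 higher and 5 to 108 lower genes. The most calls came without control liver replicate 1 (85 higher and 84 lower) and without stress liver replicate 2 (69 and 108). Without stress liver replicate 3 there were 10 and 12, without stress brain replicate 2 10 and 11, without stress brain replicate 3 10 and 14. Without control brain replicates 1, 2 and 3 in turn there were 12 and 12, 17 and 15, and 19 and 18. Without control liver replicates 2 and 3 in turn there were 31 and 47, and 36 and 47, and without stress brain replicate 1 25 and 36. Without both stress brain replicates 2 and 3 there were 0 and 1, where fewer samples remain. The cause of the other shifts was not tested. Of the 32 called named genes, 589 values under the alternatives kept the call and 396 lost it. Of the 102 named genes that were not called, 83 values gained one and 3065 did not. Genes with few liver counts, such as Hapln1, Eps8l1 and Lrrc18, are limited by depth.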
